A study of Mus musculus with 6 samples.

Results

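The genes described here are 32 mouse genes of cholesterol and fatty acid synthesis, 18 of the sterol branch and 14 of the fatty acid branch. They were taken by symbol from the 54453 genes listed in each library, and the rule that takes them uses no measured value, although they were proposed with earlier results of these data known. Of these, 14169 genes had enough counts to be tested, among them all 18 sterol genes and 13 of the 14 fatty acid genes. The exception was Thrsp, a regulator of fat synthesis in liver and adipose tissue, which had at most 2 counts in any library.

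The RNA came from organoids, small epithelial structures grown from mouse pancreatic tumours and embedded in Matrigel, a basement membrane gel. The 3 lines, T91, T113 and T118, are labelled KPC organoids with the genotype KPF/FC, which the labels do not spell out and which treated and control cultures share. T91 is female and was at passage 10, T113 is male and was at passage 13, and T118 is male and was at passage 11. Each line was sequenced once with a short hairpin RNA against Renilla luciferase, a control target, and once with hairpin number 5523 against Scrib, so there were 6 libraries and 3 per hairpin. The treatment label speaks of viral infection and the design text of transfected plasmids. With 1 Scrib hairpin, its effects on other targets cannot be told apart from those of losing Scrib, and with 1 library per line and hairpin there is no measure of spread inside a line.

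Cholesterol is made from acetyl-CoA through mevalonate, isoprenoid diphosphates and squalene, and fatty acids are made from the same acetyl-CoA through malonyl-CoA. The transcription factors SREBP-2, encoded by Srebf2, and SREBP-1, encoded by Srebf1, drive the genes of these branches. When sterols are plentiful, INSIG proteins hold the SREBP precursors in the endoplasmic reticulum, and when sterols run low the precursors move to the Golgi and are cut to their active form. Many tumour cells make fatty acids themselves even where lipids are supplied.

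Libraries held between 24035559 and 36235773 estimated counts, so that a single count amounted to 0.0269 to 0.0421 CPM, the unit used here, which is scaled by TMM. Scrib itself, a scaffold of the basolateral polarity complex, fell in each line, from 177 to 29.7 CPM in T91, from 157 to 35.0 CPM in T113 and from 158 to 30.0 CPM in T118. Its log2 fold change was -2.38 (standard error 0.12, adjusted p = 0.00582 by the quasi-likelihood F-test of edgeR, Benjamini-Hochberg adjusted over all genes tested). The 7 epithelial markers (Epcam, Cdh1, keratins and Cldn4) summed to between 7240 and 13000 CPM. The 6 adipocyte markers summed to between 1.07 and 6.45 CPM, 5 of them stayed under 1 CPM in each library, and Lep and Cfd were at 0. The 5 hepatocyte markers summed to between 0.366 and 13.3 CPM with Serpina1a at 0, and the 5 acinar markers to at most 0.336 CPM with Cela2a at 0. The 6 fibroblast markers summed to between 1.11 and 7.49 CPM with Lum at 0, and the 6 macrophage markers to between 2.15 and 6.22 CPM with none at 0 in every library. The T91 knockdown library had the highest fibroblast and macrophage sums. It also stood apart by transcript length, as described with the differences between lines. In such bulk RNA, fewer cells of a type and less RNA per cell cannot be told apart.

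The organoids expressed nearly the whole pathway at high levels. To compare genes, the mean CPM over the 6 libraries was divided by the length of the gene's merged exons. On this scale Scd2, the stearoyl-CoA desaturase that makes monounsaturated fatty acids, was the highest member at 695 CPM per kilobase, which is percentile 99.6 of the genes tested. Idi1 (isopentenyl diphosphate isomerase), Fdps (farnesyl diphosphate synthase), Insig1 and Hmgcs1 (cytosolic HMG-CoA synthase) led the sterol branch with levels of 125, 123, 103 and 102 CPM per kilobase. The lowest sterol gene was Hsd17b7, a sterol ketone reductase, at 13.8 CPM per kilobase. Acacb, the acetyl-CoA carboxylase of the mitochondrial surface, was the lowest tested member at 0.907 CPM per kilobase, which is percentile 20.1. All other tested members were at percentile 68.1, that of Acaca, or above.

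**Figure D1:**
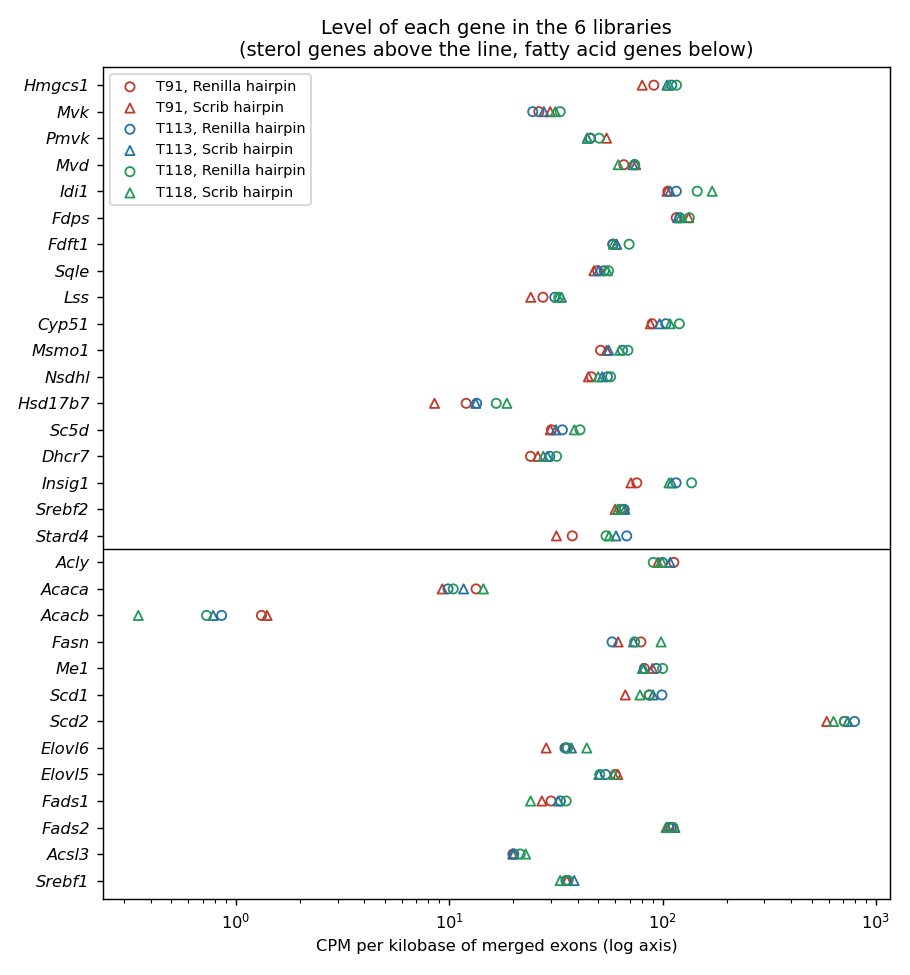
Level of each of the 31 tested genes in the 6 libraries, in CPM per kilobase of merged exons on a log axis, with sterol genes above the line and fatty acid genes below; each point is 1 library. Scd2 stands at the right with a mean of 695 and Acacb at the left with a mean of 0.907.

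Pairs of related genes kept unequal levels in the 6 libraries. Per kilobase, Scd2 was between 7.99 and 8.79 times as high as Scd1, its neighbour on chromosome 19. Fads2, the first desaturase of polyunsaturated fatty acids, was between 3.17 and 4.32 times as high as Fads1, a later desaturase of the same route. Srebf2 was between 1.68 and 1.88 times as high as Srebf1. The ratio of Acaca, the cytosolic acetyl-CoA carboxylase, to Acacb was the widest of these 4 ratios, from 6.62 in the T91 knockdown library to 41.4 in the T118 knockdown library.

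Promoter sequences were read for 4 members to show what the windows in front of these genes hold, 250 bases before the RefSeq start on the gene's own strand in GRCm38.p6. Capitals mark the letters searched on both strands, namely CCAAT, which reads ATTGG on the other strand and is a core bound by NF-Y, a partner of SREBP, then TCACNCCAC, a form of the sterol regulatory element, and CACGTG, an E-box. Hmgcs1 is shown because it is the one member with a TCACNCCAC match, Insig1 and Idi1 because their levels differed between lines, and Fasn, fatty acid synthase, because its ratios split between lines. The windows are chr13:119690101-119690350 on the plus strand for Hmgcs1, chr5:28071162-28071411 on the plus strand for Insig1, chr13:8885356-8885605 on the plus strand for Idi1 and chr11:120824548-120824797 on the minus strand for Fasn.
Hmgcs1: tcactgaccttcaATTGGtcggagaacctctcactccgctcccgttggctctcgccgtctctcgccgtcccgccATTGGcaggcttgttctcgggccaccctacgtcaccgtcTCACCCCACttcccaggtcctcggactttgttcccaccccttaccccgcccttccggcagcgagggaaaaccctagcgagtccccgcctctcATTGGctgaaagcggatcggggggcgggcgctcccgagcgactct
Insig1: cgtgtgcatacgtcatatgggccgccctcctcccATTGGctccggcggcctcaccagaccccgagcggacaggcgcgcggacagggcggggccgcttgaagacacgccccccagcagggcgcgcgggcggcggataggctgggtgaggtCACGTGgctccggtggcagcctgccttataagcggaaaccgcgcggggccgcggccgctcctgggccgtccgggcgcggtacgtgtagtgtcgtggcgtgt
Idi1: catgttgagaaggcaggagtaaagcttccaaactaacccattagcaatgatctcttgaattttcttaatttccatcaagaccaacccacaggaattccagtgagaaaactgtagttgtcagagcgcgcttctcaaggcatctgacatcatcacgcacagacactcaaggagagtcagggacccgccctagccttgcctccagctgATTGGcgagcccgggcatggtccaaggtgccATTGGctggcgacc
Fasn: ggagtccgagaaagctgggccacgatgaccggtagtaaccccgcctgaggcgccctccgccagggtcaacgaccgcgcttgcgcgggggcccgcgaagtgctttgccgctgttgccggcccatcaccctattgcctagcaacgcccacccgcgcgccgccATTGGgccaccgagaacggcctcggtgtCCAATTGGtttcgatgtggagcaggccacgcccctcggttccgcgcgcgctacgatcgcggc

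The RefSeq table had windows for 25 of the 32 members, 14 sterol and 11 fatty acid genes, and none for Sqle, Fdft1, Fdps, Stard4, Scd1, Scd2 and Fads1. CCAAT was found in at least 1 window of 14 of 14 sterol genes and 7 of 11 fatty acid genes (63.6%), against 37.5% of all 27025 genes in the table and 39.5% of its 17492 protein-coding genes. Among genes with 1 window, so that the number of windows is equal, it was found in 12 of 12 sterol genes and 5 of 9 fatty acid genes, against 34.7% of all such genes. Hmgcs1 and Fasn each held 3 CCAAT matches, the 2 adjoining ones of Fasn sharing bases, Idi1 held 2 and Insig1 held 1. CACGTG was found for 4 of 14 sterol genes (Insig1, Hsd17b7, Sc5d and Dhcr7) and for Elovl5 of the 11 fatty acid genes, against 6.86% of all genes. TCACNCCAC was found for Hmgcs1 alone, against 1.22% of all genes. These are counts of letters in a short window, with no measurement of binding.

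The first comparison asked whether the branches changed when Scrib was depleted. No tested member of either branch changed by the test, and nearly all differences were small. Of the 31 tested members, 0 passed the adjusted threshold of 0.05 in this edgeR test (adjusted p from 0.772 to 0.995), against 0.00706% of all genes tested, which is Scrib alone. At an unadjusted p under 0.05 there were also 0 members, against 6.61% of all genes, and DESeq2 and limma-voom called 0 members as well. The 95% interval of the fold change lay within 1.5-fold either way for all 18 sterol genes and for 12 of 13 fatty acid genes, Acacb being the exception. It did so for 8810 of all 14169 genes tested. These intervals are per gene and not adjusted for the number of genes.

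**Figure D2:**
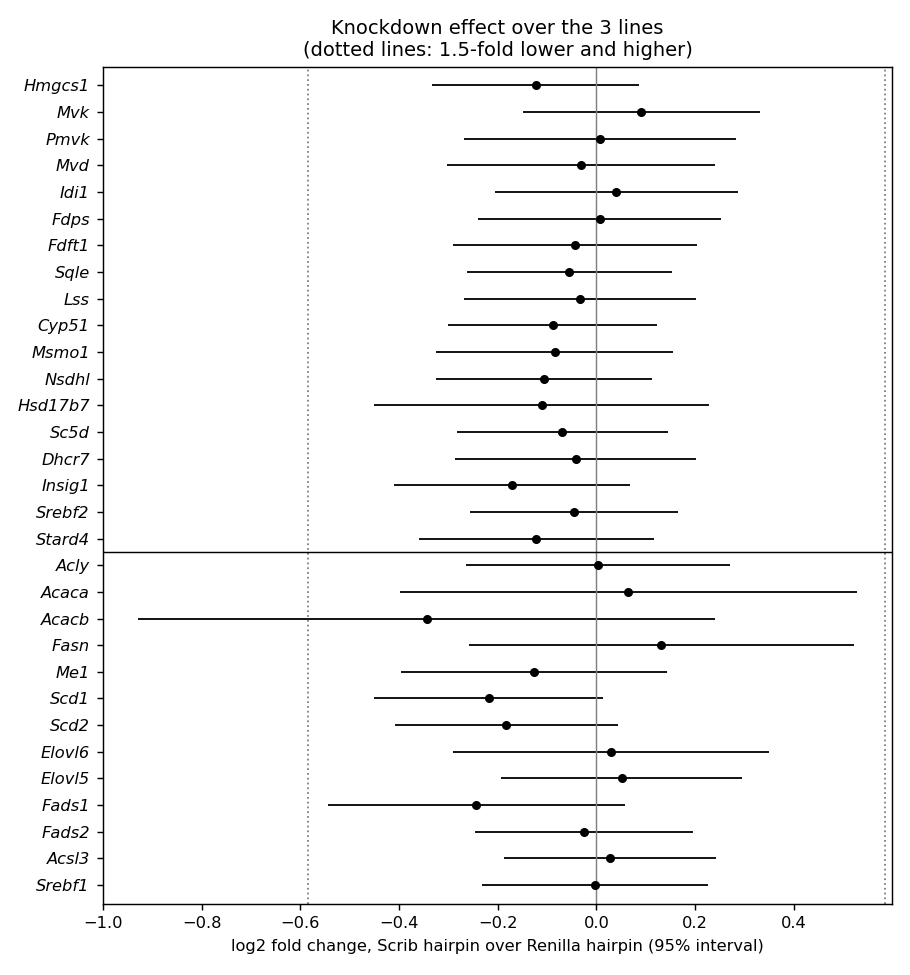
Log2 fold change of each tested gene, Scrib hairpin over Renilla hairpin, with its 95% interval from edgeR; dotted lines mark 1.5-fold lower and higher. All intervals include 0, and only that of Acacb, from -0.93 to 0.24, reaches past a dotted line.

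Most sterol genes had log2 fold changes slightly below 0, none of which passed the test. Of the 18, 14 had a log2 fold change below 0 and 4 above, where 51.8% of all genes were below 0. Their median was -0.05 and their range -0.17 to 0.09, beside a median of -0.01 over all genes. The sterol median of the ratios within T91, T113 and T118 was -0.02, -0.06 and -0.12. Summed over the 18 genes, the level was 4460 CPM with the Renilla and 4410 CPM with the Scrib hairpin in T91, 5210 and 5000 CPM in T113, and 5640 and 5320 CPM in T118. In the first steps, which lead from acetyl-CoA to farnesyl diphosphate, Hmgcs1 and Mvd (mevalonate diphosphate decarboxylase) had log2 fold changes below 0. Mvk and Pmvk (the kinases of mevalonate and phosphomevalonate), Idi1 and Fdps had log2 fold changes between 0.01 and 0.09.

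Hmgcs1 stood at 418 CPM with the Renilla and 369 CPM with the Scrib hairpin in T91, at 507 and 481 CPM in T113 and at 534 and 494 CPM in T118. The knockdown library was the lower one in each line, while the groups overlapped and T91 was low with either hairpin. The log2 fold change of Hmgcs1 was -0.12 (standard error 0.09, adjusted p = 0.804 by edgeR). An annotated gene on the opposite strand, Gm48342, shared 10.9% of the 31-base words of Hmgcs1 and had at most 4 counts in a library.

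From squalene to cholesterol, all 9 genes had log2 fold changes below 0, between -0.11 and -0.03. They were Fdft1 (squalene synthase, -0.04), Sqle (squalene epoxidase, -0.06), Lss (lanosterol synthase, -0.03), Cyp51 (lanosterol demethylase, -0.09), Msmo1 (methylsterol monooxygenase, -0.08), Nsdhl (a sterol dehydrogenase, -0.11), Hsd17b7 (-0.11), Sc5d (a sterol desaturase, -0.07) and Dhcr7 (the reductase that makes cholesterol, -0.04). Within lines, 6, 7 and 8 of the 9 were lower in T91, T113 and T118. The shared sign rested on small values: Lss was at 0.04 once transcript length was corrected for, and without a line Lss, Fdft1, Hsd17b7 and Dhcr7 each moved above 0 in 1 case.

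Nsdhl stood at 132 CPM with the Renilla and 128 CPM with the Scrib hairpin in T91, at 157 and 149 CPM in T113 and at 163 and 142 CPM in T118. Cyp51 stood at 394 and 387 CPM in T91, at 457 and 427 CPM in T113 and at 529 and 479 CPM in T118. For both genes the knockdown library was lower within each line and the groups overlapped. The adjusted p was 0.825 for Nsdhl and 0.844 for Cyp51 by the same edgeR test.

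Among the regulators, Insig1 (chromosome 5 from 28071363 to 28078662 in GRCm38) had the largest difference of the sterol branch. It stood at 234 CPM with the Renilla and 220 CPM with the Scrib hairpin in T91, at 358 and 341 CPM in T113 and at 423 and 331 CPM in T118. The knockdown library was lower within each line, by the most in T118, and the T91 libraries lay below all others. The log2 fold change was -0.17 (standard error 0.10, 95% interval -0.41 to 0.07), with an unadjusted p of 0.134 and an adjusted p of 0.783 by edgeR. Without T118 it was -0.08, while Hsd17b7 was at -0.25 and Stard4 at -0.21. Srebf2 varied little, between 430 and 478 CPM, and its log2 fold change was -0.05 (standard error 0.09).

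The other sterol genes are given by their range over the 6 libraries. Sqle ranged from 264 to 309 CPM, Lss from 260 to 362, Fdft1 from 247 to 294, Fdps from 488 to 561 and Msmo1 from 315 to 422. Dhcr7 ranged from 140 to 185 CPM, Sc5d from 145 to 200, Mvd from 115 to 139, Mvk from 65.9 to 88.6, Pmvk from 76.0 to 93.6 and Hsd17b7 from 43.6 to 95.1. Hsd17b7 had the widest of these ranges relative to its level, with its lowest value in the T91 and its highest in the T118 knockdown library.

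Stard4, a small carrier that moves sterols between membranes, stood at 211 CPM with the Renilla and 178 CPM with the Scrib hairpin in T91, at 379 and 338 CPM in T113 and at 303 and 314 CPM in T118. It was lower with the Scrib hairpin in T91 and T113 and slightly higher in T118. Its log2 fold change was -0.12 (standard error 0.10, adjusted p = 0.821 by edgeR).

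Fatty acid genes had no common direction. Of the 13 tested, 7 had a log2 fold change below 0 and 6 above, with a median of -0.002 and a range of -0.34 to 0.13. Their median within T91, T113 and T118 was -0.14, 0.001 and -0.11. The summed level of all 14 genes, to which Scd2 gave the largest part, was 7570 CPM with the Renilla and 6390 CPM with the Scrib hairpin in T91, 7730 and 7610 CPM in T113, and 7400 and 7240 CPM in T118.

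The desaturases Scd1, Scd2 and Fads1 had the smallest p-values of the 31 members, and each was lower after knockdown in all 3 lines. Scd1 (chromosome 19 from 44394455 to 44407879 on the minus strand) stood at 425 CPM with the Renilla and 327 CPM with the Scrib hairpin in T91, at 486 and 441 CPM in T113 and at 423 and 383 CPM in T118. Scd2 (chromosome 19 from 44293674 to 44306864 on the plus strand) stood at 3888 and 3209 CPM in T91, at 4333 and 4030 CPM in T113 and at 3877 and 3453 CPM in T118. Fads1 (chromosome 19 from 10182888 to 10196877) stood at 144 and 131 CPM in T91, at 160 and 156 CPM in T113 and at 170 and 116 CPM in T118. The differences of Scd1 and Scd2 were largest in T91 and that of Fads1 in T118, and for each gene control and knockdown libraries overlapped across lines. The log2 fold change was -0.22 for Scd1 (standard error 0.10, 95% interval -0.45 to 0.01, unadjusted p = 0.0612 by edgeR). It was -0.18 for Scd2 (standard error 0.09, 95% interval -0.41 to 0.04, unadjusted p = 0.0954 by edgeR) and -0.24 for Fads1 (standard error 0.12, 95% interval -0.54 to 0.06, unadjusted p = 0.0955 by edgeR). After adjustment the p-values were 0.772, 0.779 and 0.779, so that none of the 3 differences passed the test. Without T118 the log2 fold change of Fads1 was -0.09, and without T91 that of Scd1 was -0.14.

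Insig1, Scd1, Scd2 and Fads1 belong to 9 members that were lower in each line, the others being Hmgcs1, Sqle, Cyp51, Sc5d and Nsdhl. They make up 6 of 18 sterol and 3 of 13 fatty acid genes, while 15.4% of all genes tested were lower in all 3 lines. No member was higher in all 3 lines, against 14.7% of all genes. The remaining desaturase and the elongases had log2 fold changes near 0, at -0.03 for Fads2, 0.05 for Elovl5 and 0.03 for Elovl6, the elongase that extends palmitate. Fads2 ranged from 342 to 376 CPM and Elovl5 from 177 to 217 CPM. Srebf1 stood between 187 and 217 CPM (log2 fold change -0.002) and Acsl3, an acyl-CoA synthetase, between 86.5 and 99.4 CPM (0.03).

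Of all tested members, Acacb had the largest fold change and the widest interval. It stood at 12.7 CPM with the Renilla and 13.5 CPM with the Scrib hairpin in T91, at 8.27 and 7.55 CPM in T113 and at 7.03 and 3.37 CPM in T118. The difference came with T118, where the knockdown library held 92 counts of the gene. Over the lines the log2 fold change was -0.34 (standard error 0.24, 95% interval -0.93 to 0.24, adjusted p = 0.804 by edgeR), and without T118 it was -0.02. Me1, the malic enzyme that supplies NADPH for fatty acid synthesis, stood at 316 and 345 CPM in T91, at 360 and 310 CPM in T113 and at 385 and 315 CPM in T118. It was higher after knockdown in T91 and lower in the other 2 lines, with a log2 fold change of -0.13 (standard error 0.11, adjusted p = 0.830 by edgeR). Another gene, Gm7049, shared 28.6% of the 31-base words of Me1 but stood at or below 0.732 CPM.

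The second comparison set the knockdown effect of each line beside the others. The enzymes of palmitate synthesis parted by line: Fasn, Acaca and Acly were lower with the Scrib hairpin in T91 and higher in T113 and T118. Elovl6 and Acsl3 had the same signs, so that 5 of 13 fatty acid genes did, against 17.0% of all genes tested, and 0 of 18 sterol genes did. The ratios of Acsl3 were close to 0 (-0.003, 0.001 and 0.08 in T91, T113 and T118). The opposite signs, higher in T91 and lower in T113 and T118, were seen for Me1 and Acacb and for 5 sterol genes (Fdps, Mvd, Pmvk, Dhcr7 and Msmo1), against 17.1% of all genes. Fasn, Acaca, Acly and Elovl6 are described with their values in each library because of this split, and were chosen after those values were seen.

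Fasn (chromosome 11 from 120805846 to 120824547 on the minus strand) stood at 866 CPM with the Renilla and 677 CPM with the Scrib hairpin in T91, at 635 and 800 CPM in T113 and at 810 and 1076 CPM in T118. Acaca (chromosome 11 from 84129672 to 84401651 on the plus strand) stood at 228 and 159 CPM in T91, at 169 and 200 CPM in T113 and at 178 and 247 CPM in T118. In both genes T91 had the highest control and the lowest knockdown library. Acly, the ATP citrate lyase that supplies cytosolic acetyl-CoA, stood at 596 and 501 CPM in T91, at 527 and 572 CPM in T113 and at 477 and 525 CPM in T118. Elovl6 stood at 227 and 183 CPM in T91, at 224 and 241 CPM in T113 and at 231 and 284 CPM in T118. The control libraries of Elovl6 were thus close together, and its knockdown libraries lay on either side of them.

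**Figure D3:**
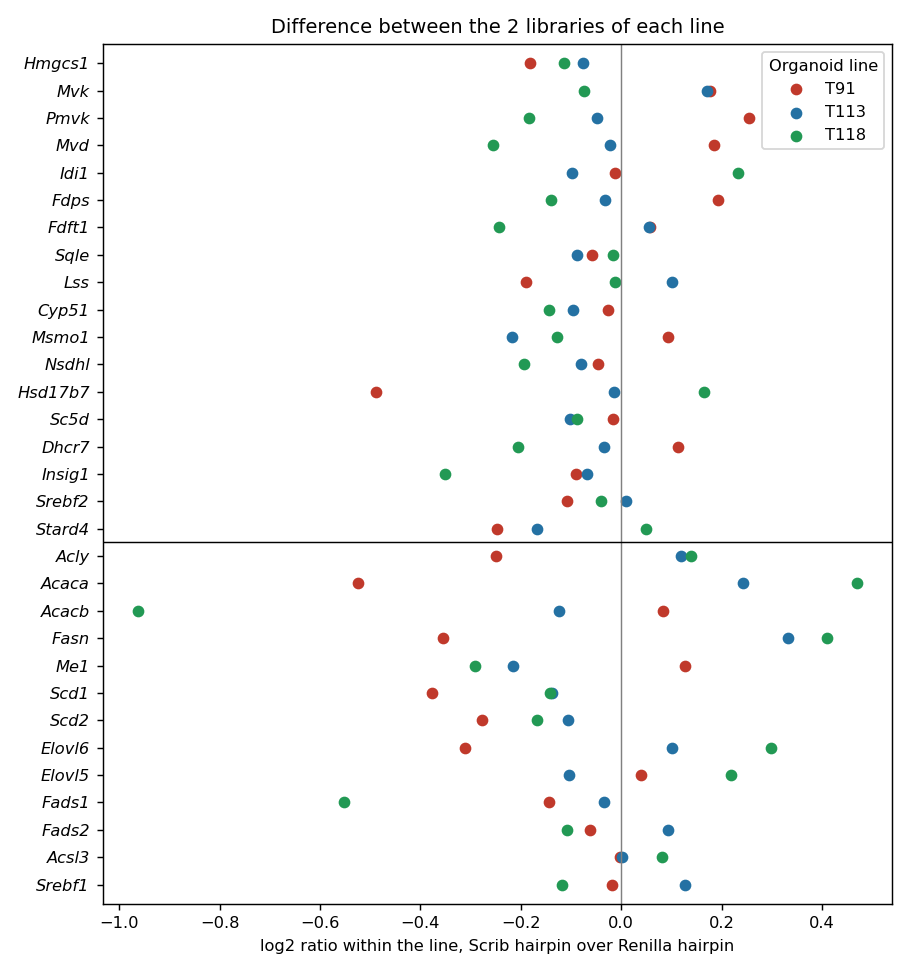
Log2 ratio of Scrib over Renilla hairpin within each line for the 31 tested genes, 1 point per line, from TMM-scaled CPM plus 0.5. Fasn lies at -0.36 in T91 and 0.41 in T118 and Acaca at -0.52 and 0.47, while most sterol genes lie close to 0.

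A term for the T91 knockdown library, added after these values were seen, tested whether the hairpin effect in T91 differed from that of the other 2 lines. It was -0.88 on the log2 scale for Acaca (standard error 0.16, unadjusted p = 0.000428, adjusted p = 0.0631 by edgeR) and -0.73 for Fasn (standard error 0.14, unadjusted p = 0.000568, adjusted p = 0.0713 by edgeR). It was -0.51 for Elovl6, -0.38 for Acly and 0.38 for Me1, and in the sterol branch -0.57 for Hsd17b7 and 0.37 for Pmvk, with adjusted p from 0.158 to 0.297 by edgeR. No member passed, while 0.494% of all genes did. In simulated data this test found 1% of 1.5-fold and 18% of 2-fold differences. At an unadjusted p under 0.05 by edgeR there were 5 of 13 fatty acid and 2 of 18 sterol genes, against 16.3% of all genes. With DESeq2 size factors, with DESeq2's own test and without the low-count filter, Acaca passed (adjusted p = 0.0369, 0.0106 and 2.07e-05) and so did Fasn (0.0466, 0.0123 and 0.000273). In the same order these settings called 142, 112 and 1097 of all genes, against 70 in the main edgeR fit. Without the low-count filter Elovl6 and Hsd17b7 passed too, and limma-voom called no member.

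The same term for T113 called 0 members, with 0.0565% of all genes called, and 0 members at an unadjusted p under 0.05, against 0.882%. For T118 it also called 0 members by edgeR, with 0.614% of all genes called. At an unadjusted p under 0.05 there was 1 member, Acacb, against 8.72% of all genes. DESeq2 and limma-voom called 0 members for either line. The effect on Acacb in T118 minus that in the other lines was -1.04 on the log2 scale (standard error 0.39, adjusted p = 0.360 by edgeR). These fits leave 1 residual degree of freedom, so no library could be left out.

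The ratios within T91 moved with transcript length over all genes. For 9980 protein-coding genes with a mean of at least 5 CPM, the median log2 ratio in T91 was 0.30 for genes whose longest annotated transcript was under 1 kilobase and -0.47 for those over 8 kilobases. In between, it was 0.20, 0.09, -0.04 and -0.25. In T113 the medians of the shortest and longest class were 0.05 and -0.06, and in T118 they were -0.11 and 0.14. Fasn, with a longest transcript of 10050 bases, and Acaca, with one of 9513 bases, belong to the longest class. The T91 ratio of Fasn was at percentile 64.3 of that class and that of Acaca at percentile 42.2, so neither lay at its low end. Within their own classes Scd2 was at percentile 44.0, Elovl6 at 38.3, Acly at 13.4, Scd1 at 5.0 and Hsd17b7 at 2.0. The 5 sterol genes that were higher in T91 and lower in T113 and T118 had longest transcripts of 1194 to 2969 bases. They belong to classes whose T91 medians were above 0, and their T91 ratios were at percentiles 45.5 to 75.9 there. Me1 and Acacb, with the same signs, were at percentiles 80.7 and 96.6 of their classes.

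With each library corrected for transcript length, a setting added after seeing the data, the T91 term for Fasn was -0.21 (standard error 0.12, unadjusted p = 0.13, adjusted p = 0.554 by edgeR). That for Acaca was -0.39 (standard error 0.13, unadjusted p = 0.0215, adjusted p = 0.416 by edgeR). The T91 term of Scd1 went from -0.24 to -0.08 and that of Scd2 from -0.14 to 0.07. No member was called for any line. Over the 3 lines the length-corrected log2 fold change was 0.25 for Fasn (standard error 0.08) and 0.18 for Acaca (standard error 0.10), with adjusted p of 0.613 and 0.693 by edgeR. Another gene, Gm5182, shared 31.7% of the 31-base words of Acaca at 0.631 to 2.49 CPM, and Acaca summed with it had log2 ratios of -0.54, 0.24 and 0.47 in T91, T113 and T118. In T91 the fibroblast marker sum was 1.11 CPM with the Renilla and 7.49 CPM with the Scrib hairpin, that of macrophage markers 3.42 and 6.22 CPM, and that of epithelial markers 9270 and 10400 CPM. The part of these markers in the T91 ratios was not tested.

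**Figure D4:**
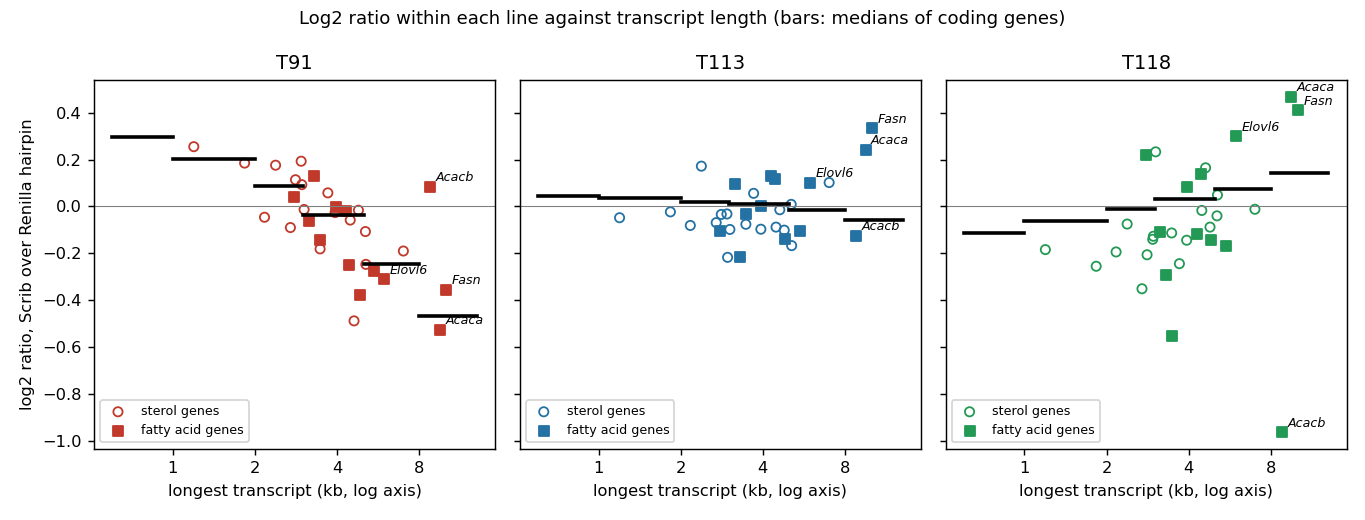
Log2 ratio within each line against the longest annotated transcript in kilobases (log axis), 1 panel per line; points are the members and bars the medians of protein-coding genes by length class. In T91 the bars go from 0.30 for the shortest class to -0.47 for the longest, where Fasn and Acaca lie.

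The third comparison asked how the branches differ between the tumour lines. The lines also differ in passage and, for T91, in sex, which cannot be told apart from other differences between them. Insig1, Stard4 and Idi1 of the sterol branch differed between lines by the F-test of the line terms in edgeR (adjusted p under 0.05), and no fatty acid gene did. That is 3 of 18 and 0 of 13, against 14% of all genes tested. At an unadjusted p under 0.05 by edgeR it was 8 of 18 and 1 of 13 (Acacb), against 29.5% of all genes. DESeq2's likelihood ratio test called 6 sterol genes and Acacb, and limma-voom called the same 3 sterol genes and no fatty acid gene. Of all genes, these 2 tests called 2653 and 2023, against 1989 in the main edgeR fit.

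Stard4 was lowest in T91, with 194 CPM as the mean of its libraries, 359 CPM in T113 and 309 CPM in T118, and the T91 libraries did not overlap with the others. On the log2 scale T113 was above T91 by 0.89 and T118 by 0.68 (adjusted p = 0.0120 by edgeR). Insig1 was lowest in T91 as well, at 227 CPM against 349 CPM in T113 and 377 CPM in T118 (log2 differences 0.62 and 0.73, adjusted p = 0.0211 by edgeR). Idi1 stood at 371 CPM with the Renilla and 368 CPM with the Scrib hairpin in T91, at 406 and 380 CPM in T113 and at 509 and 598 CPM in T118. Its T118 libraries lay above all others (log2 difference of T118 from T91 0.58, adjusted p = 0.0422 by edgeR). Another gene, Gm13502, shared 18.4% of the 31-base words of Idi1 and stood between 9.55 and 39.9 CPM.

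**Figure D5:**
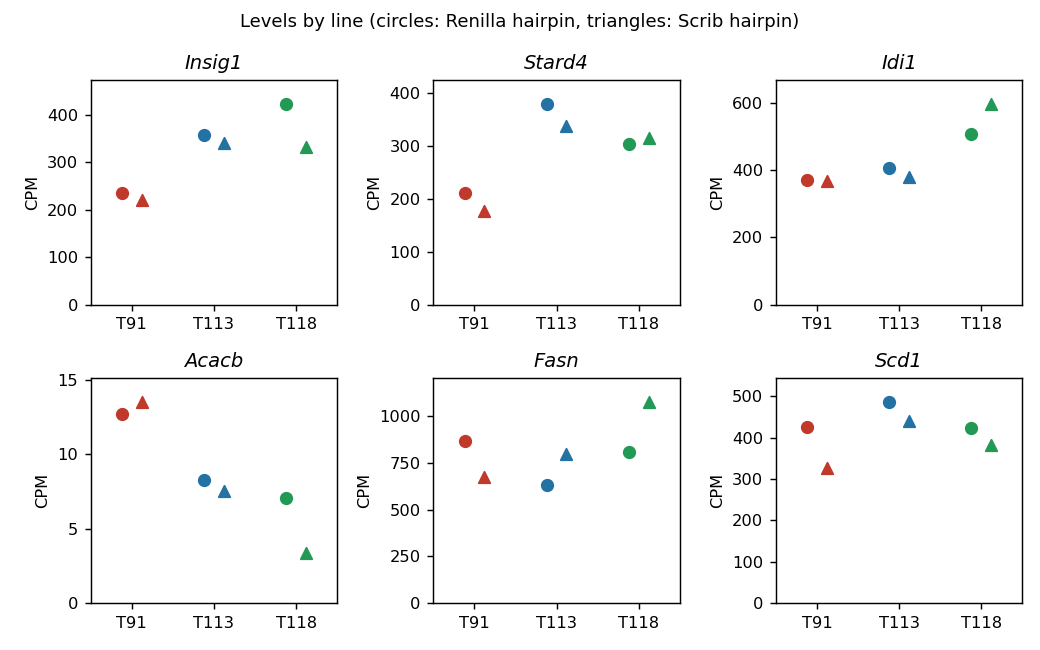
CPM by line for members described in the comparison of lines, with circles for the Renilla hairpin and triangles for the Scrib hairpin, 1 library each; the axes start at 0. Stard4 and Insig1 are lowest in T91, and Idi1 is highest in T118.

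These 3 calls depended on T113, and the number of calls on T91. Without the T113 control library the adjusted p was 0.0687 for Stard4, 0.0704 for Insig1 and 0.154 for Idi1, and without the T113 knockdown library 0.0505, 0.0878 and 0.214, by the same edgeR test. Without either T91 library more members were called than with all libraries, as were more of all genes. Without either T113 library fewer of all genes were called. In such a fit the line concerned has no replicate. Idi1 also missed the threshold without the T118 knockdown library (0.231) and with a filter at a mean of 5 CPM (0.0524). Among the other members, Acacb ran from 13.1 CPM in T91 to 7.91 CPM in T113 and 5.20 CPM in T118 (adjusted p = 0.0571 by edgeR). Hsd17b7 ran the other way, from 52.4 to 68.3 and 89.9 CPM (adjusted p = 0.0617 by edgeR). Scd1 and Scd2 were highest in T113, at 463 and 4181 CPM, and did not pass (adjusted p = 0.238 and 0.328 by edgeR). With the length correction Hmgcs1, Hsd17b7 and Fasn passed in addition (adjusted p = 0.0384, 0.0206 and 0.0229 by edgeR). That setting called 2599 of all genes, against 1989 in the main fit.

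The genes around these branches did not change by the edgeR test in the knockdown comparison either. Of 17 tested genes of SREBP control and cholesterol transport, 11 had a log2 fold change below 0 and the median was -0.12. At an unadjusted p under 0.05, 3 of these were lower and 0 higher, where 717 of all 14169 genes were lower and 219 higher. They were Insig2, the partner of Insig1 (-0.33, standard error 0.12), Npc1, which exports cholesterol from lysosomes (-0.30, standard error 0.11), and Lima1, an actin-binding protein (-0.25, standard error 0.09), each lower in all 3 lines. Insig2 stood at 29.9 CPM with the Renilla and 27.8 CPM with the Scrib hairpin in T91, at 38.6 and 29.3 CPM in T113 and at 28.2 and 20.0 CPM in T118. Its adjusted p was 0.745 by edgeR, and the difference between its libraries was larger in T113 and T118 than in T91.

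Of 8 other tested sterol and isoprenoid genes, 3 were below and 5 above 0 (median 0.03), with values of -0.28 for the sterol reductase Tm7sf2, 0.11 for Tmem97, which binds NPC1, and 0.12 for Lbr, a nuclear envelope protein that is also a sterol reductase. Of 19 other genes of fatty acid synthesis and activation, 9 were below and 10 above 0 (median 0.001). Among these, Oxsm of mitochondrial fatty acid synthesis had -0.20, the acyl-CoA synthetase Acsl1 -0.21 and the elongase Elovl1 0.14. No gene of either list had an unadjusted p under 0.05 by edgeR.

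Of 14 tested genes of triglyceride synthesis and lipid droplets, 9 were below 0 (median -0.04), and the phosphatidate phosphatase Lpin1 had an unadjusted p of 0.0382 by edgeR with a log2 fold change of -0.27. Lpin2 and the acyltransferase Dgat1 had values of -0.18 and -0.24. Of 18 genes of fatty acid oxidation, 13 were below 0 (median -0.08). Etfdh, which passes electrons from oxidation to the respiratory chain, and the peroxisomal enzyme Ehhadh had values of -0.19 and -0.41. The oxidation medians within T91, T113 and T118 were 0.11, -0.08 and -0.33, and 17 of the 18 genes were lower in T118, where 7113 of all 14169 genes were lower. The 7 epithelial markers had medians of 0.15, -0.21 and -0.39 in the same lines, with 7 of 7 lower in T118 and a sum of 13000 CPM in its control and 9960 CPM in its knockdown library. The part of these markers in the oxidation values was not tested. Whether the lines differ in this was not tested.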

How the data were processed

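RNA of 6 organoid libraries was measured by mRNA sequencing. Estimated counts for each Ensembl gene were deposited by the authors, made with Salmon 1.4.0 on GRCm38 per the submitters' processing notes, which also name DESeq 2. For the strand setting and annotation, the sources used here give nothing, so reads of overlapping genes on opposite strands (Fdft1 and Ctsb share 17.6% of the 31-base words of Fdft1) may not have been told apart. Ctsb stood between 186 and 256 CPM. Fdft1 had log2 ratios of 0.058, 0.056 and -0.244 in T91, T113 and T118. Summed with Ctsb, they were 0.112, -0.001 and -0.295.

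Of the 54453 identifiers, 54200 matched a symbol in the GENCODE annotation. The estimated counts were rounded and tested in R 4.3.3 with edgeR 4.0.16 (TMM scaling, filterByExpr with a minimum count of 10, robust quasi-likelihood F-test with line and hairpin terms, two-sided, Benjamini-Hochberg adjustment over 14169 genes, threshold 0.05). The fit had 2 residual and 4.43 prior degrees of freedom. The pairing by line comes from the labels, and the libraries of a line deviated together (correlations 0.621, 0.666 and 0.662). Samples are separate tumour lines. Ratios within lines are log2 of CPM plus 0.5. DESeq2 1.42.0 and limma 3.58.1 (voom) served as alternatives, with other filters, scaling, no line term and left-out libraries. The tests were checked on simulated data with changes placed in genes above 10 CPM. The knockdown test found 62% of 1.5-fold and 99% of 2-fold changes, and the test between lines 49% and 97%. The T91 term found 1% and 18%, so a member that did not pass it may still differ. In the same order, 8, 8 and 1 genes without a placed change were called. Apart from the placed changes the simulated lines were alike, and the spread of a gene followed its level alone. Changes were placed in many genes, where the knockdown test called 1 gene in the data. These shares can therefore be too high for the data, and a 2-fold change of a member may go uncalled.

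The members and lists were chosen with earlier results of these data known. Values in each library are given for up to 5 genes per branch by smallest p for the hairpin and 3 for the line, and pathway lists are represented by up to 3 genes of smallest p, of which 1 result is not reported here. Terms for the effect in 1 line and the length correction were added after seeing the data.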

Additional observations from a re-analysis of the deposited data

Results flagged for a closer look

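For 3 members the ratio of Scrib over Renilla hairpin pointed in opposite directions in T91 and T118, by at least 0.2 on the log2 scale each way, with 1 library per line and hairpin. Fasn had a log2 ratio of -0.36 in T91 and 0.41 in T118. Acaca had one of -0.52 in T91 and 0.47 in T118. Elovl6 had one of -0.31 in T91 and 0.30 in T118. The difference between T91 and T118 alone was not tested, and the term for T91 against both other lines is given with the second comparison, beside the transcript-length values of T91.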

How the results depend on the processing

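Of 310 member values of the knockdown comparison under other settings, 34 changed sign and 0 passed the test, and all of the former were of members within 0.14 of 0 on the log2 scale. Without the replicate block (no line term), Acly was at -0.001 and Srebf1 at 0, the sterol median was -0.052 and no call changed. With DESeq2 size factors and with DESeq2's test Acly was at 0. Without the low-count filter Fdps was at -0.012, Pmvk at -0.012 and Acly at -0.016, and with a mean of at least 5 CPM they were at -0.001, 0 and -0.005. With the length correction Lss was at 0.036, Fdps at -0.019, Pmvk at -0.063 and Srebf1 at 0.001. Leaving out each line in turn gave a range from -0.098 to 0.045 for Lss, -0.094 to 0.055 for Fdft1, -0.086 to 0.078 for Fdps, -0.058 to 0.113 for Idi1, -0.139 to 0.078 for Mvd, -0.116 to 0.101 for Pmvk, -0.12 to 0.037 for Dhcr7 and -0.253 to 0.077 for Hsd17b7. For fatty acid genes it gave -0.013 to 0.372 for Fasn, -0.143 to 0.357 for Acaca, -0.068 to 0.129 for Acly, -0.107 to 0.2 for Elovl6, -0.035 to 0.132 for Elovl5, -0.064 to 0.053 for Srebf1, -0.082 to 0.014 for Fads2 and -0.004 to 0.043 for Acsl3.

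Over all genes, the knockdown comparison called 64 without the filter, 63 with DESeq2, 8 with limma-voom and from 9 (without T113) to 94 (without T91) when a line was left out. Between lines, 1310 genes were called with a mean of at least 5 CPM and from 1274 to 4328 when a library was left out. The sterol genes called were 6 with DESeq2, 5 with the length correction and from 0 to 7 without a library, and the fatty acid genes 1 without the filter, with DESeq2 and with the length correction, and from 0 to 5 without a library. For the effect in T91 against the other lines, genes called were 142 with DESeq2 size factors, 1097 without the filter, 19 with a mean of at least 5 CPM, 112 with DESeq2's test and 2 with the length correction, and members called were 2, 4, 0, 2 and 0. For T113, genes called were 63 without the filter, 2 with a mean of at least 5 CPM, 5 with DESeq2 and 0 with the length correction, and for T118 they were 222, 42, 39 and 12. Apart from the alternatives whose construction changes the genes or libraries used, the cause was not tested.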
